A study of Mus musculus with 13 samples.

Results

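The TNF superfamily comprises cytokine ligands, named Tnfsf in the mouse gene nomenclature, and their receptors, named Tnfrsf. Genes measured in mouse epididymal fat were taken as members where their symbol begins with Tnfsf or Tnfrsf, or is Fas, Cd27, Cd40, Cd40lg, Cd70, Lta, Ltb, Ltbr, Ngfr or Eda2r, without regard to their values. Tnf and Fasl were left out of the set. This gave 39 members among 18818 genes measured on the arrays: 13 ligands and 26 receptors. Tnfsf12 and Tnfsf13 share 1 probe set that carries several symbols, so they were not counted as members.

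Ligands of this family act as trimers, mostly on the surface of immune cells, and bind receptors that recruit TRAF adaptor proteins or, through a death domain, the adaptors TRADD and FADD. TRAF recruitment activates NF-κB and gives costimulation and survival signals to T cells, B cells and antigen-presenting cells, whereas the death domain can start apoptosis or necroptosis. Decoy receptors bind a ligand and carry no working signalling domain. In fat, adipocytes, stromal cells and resident immune cells each carry part of the family.

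The study asked how activating natural killer T (NKT) cells alters fat early in high fat feeding. NKT cells are lymphocytes that recognise lipids presented by CD1d, and α-galactosylceramide (αGalCer) is a glycolipid that activates them. All mice were males that ate a high fat diet for 4 days, and each received an injection into the peritoneum on days 0 and 2, which was αGalCer (100 ng per g) or its vehicle, pyridine. At 6.5 weeks of age, on day 4, the epididymal fat was collected.

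The groups were CD1d-/- mice after αGalCer (3 arrays), CD1d-/- mice after vehicle (3 arrays), wild type mice after αGalCer (4 arrays) and wild type mice after vehicle (3 arrays). Wild type mice were C57BL/6J. The CD1d-/- mice were of the strain B6.129S6-Cd1d1/Cd1d2tm1spb/J on the C57BL/6J background, lack CD1d in all tissues, and were not stated to be littermates of the wild type mice. The labels do not state that each array is a separate animal, so p-values reflect only the spread between samples of a group, part of which may be technical. Cd1d1, the targeted gene, read 2.64 to 4.03 on the CD1d-/- arrays and 9.08 to 10.86 on the wild type arrays. Values are log2 expression after the authors' RMA normalization, so that a difference of 1 is a 2-fold change, and ± after a difference is the standard error (SE) of the limma model. Transcripts of other tissues stood out on a few arrays. The skeletal muscle list averaged 8.74 on CD1d-/- αGalCer replicate 3 and 8.34 and 6.97 on CD1d-/- vehicle replicates 1 and 2, against 5.33 to 6.10 on the other 10 arrays. The list for epididymis and ductal epithelium averaged 4.45 to 4.50 on the CD1d-/- αGalCer arrays, 4.75 to 6.42 on the CD1d-/- vehicle arrays, 4.54 to 4.82 on the wild type αGalCer arrays and 5.03 to 6.76 on the wild type vehicle arrays. It was highest on wild type vehicle replicate 3 and CD1d-/- vehicle replicate 1, and wild type vehicle replicate 1 came next at 5.97. The 4 arrays left out together in 1 of the alternatives below were CD1d-/- αGalCer replicate 3, CD1d-/- vehicle replicates 1 and 2 and wild type vehicle replicate 3. Wild type vehicle replicate 1 stayed in that fit.

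Promoters of 5 members are shown first, because they hold letter matches to short motifs named after NF-κB, interferon responses and STAT6. RefSeq entries (assembly GRCm38.p6) of 300 bases, 250 before and 50 after a transcript start of the gene, were matched for 30 of the 39 members and searched on both strands. Motifs were the NF-κB consensus, the interferon-stimulated response element core GAAANNGAAA, the interferon gamma activated site TTCNNNGAA and the STAT6 site TTCNNNNGAA. The 4 raised members whose promoter holds at least 2 of these motifs are printed with Lta, which holds 2 and was not called. Capitals mark the matches.
Tnfrsf9 (chr4:150927749-150928048, plus strand): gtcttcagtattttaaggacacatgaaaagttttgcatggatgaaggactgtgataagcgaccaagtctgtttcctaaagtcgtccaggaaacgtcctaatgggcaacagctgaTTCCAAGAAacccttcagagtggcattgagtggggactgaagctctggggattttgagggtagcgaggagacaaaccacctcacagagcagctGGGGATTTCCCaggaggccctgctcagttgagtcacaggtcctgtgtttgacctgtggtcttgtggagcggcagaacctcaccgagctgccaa
Ltb (chr17:35194257-35194556, plus strand): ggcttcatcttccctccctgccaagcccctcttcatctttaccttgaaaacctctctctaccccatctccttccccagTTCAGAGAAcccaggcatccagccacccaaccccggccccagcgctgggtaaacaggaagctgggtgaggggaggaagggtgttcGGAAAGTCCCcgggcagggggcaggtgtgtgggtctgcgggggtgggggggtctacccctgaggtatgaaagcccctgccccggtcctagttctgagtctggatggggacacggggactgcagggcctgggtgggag
Tnfrsf1b (chr4:145246821-145247120, minus strand): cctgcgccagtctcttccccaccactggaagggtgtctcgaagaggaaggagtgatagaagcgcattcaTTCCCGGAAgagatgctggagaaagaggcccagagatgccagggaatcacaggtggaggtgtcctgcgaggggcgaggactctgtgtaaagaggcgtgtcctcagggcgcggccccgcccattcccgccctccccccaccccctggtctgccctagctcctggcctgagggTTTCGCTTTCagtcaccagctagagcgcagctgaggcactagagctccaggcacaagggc
Tnfsf13b (chr8:10006383-10006682, plus strand): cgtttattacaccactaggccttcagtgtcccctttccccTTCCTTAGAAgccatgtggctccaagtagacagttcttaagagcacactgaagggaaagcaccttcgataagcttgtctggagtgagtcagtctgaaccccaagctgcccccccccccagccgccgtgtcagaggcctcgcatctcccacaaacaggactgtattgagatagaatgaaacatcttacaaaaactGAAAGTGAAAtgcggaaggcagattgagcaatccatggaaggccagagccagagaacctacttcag
Lta (chr17:35205302-35205601, minus strand): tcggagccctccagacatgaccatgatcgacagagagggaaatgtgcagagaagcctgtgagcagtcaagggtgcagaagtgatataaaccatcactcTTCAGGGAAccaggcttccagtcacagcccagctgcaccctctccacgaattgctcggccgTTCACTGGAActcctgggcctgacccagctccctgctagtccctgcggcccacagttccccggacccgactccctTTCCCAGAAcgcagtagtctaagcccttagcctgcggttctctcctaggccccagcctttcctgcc

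RefSeq gives Tnfrsf9 and Tnfsf13b 2 entries each, and the one with more motifs is printed. The printed windows of Tnfrsf9, Tnfsf13b and Lta each belong to a start inside the gene, downstream of its first annotated base. For Tnfrsf9 the entry at that first base held no match. In the printed Tnfrsf9 window the NF-κB matches overlapped each other near its start site, with an interferon gamma activated site further upstream. Ltb held the same pair of motifs. Tnfrsf1b held an interferon-stimulated response element core close to its start and an interferon gamma activated site upstream, and the printed entry of Tnfsf13b held such a core close to its start and a STAT6 site upstream. The other Tnfsf13b entry, which overlaps it, held the STAT6 site alone. The promoter of Lta held interferon gamma activated sites and a STAT6 site. Over all 32851 promoters in the table, 4.51% held the NF-κB consensus, 3.44% the response element core, 8.3% the interferon gamma activated site and 6.95% the STAT6 site. Counting any entry of a member, among the 30 members the NF-κB consensus was found in 3 (Ltb, Tnfrsf8 and Tnfrsf9) and the core in 4 (Tnfrsf14, Tnfrsf17, Tnfrsf1b and Tnfsf13b). The interferon gamma activated site was found in 9 (Fas, Lta, Ltb, Tnfrsf18, Tnfrsf19, Tnfrsf1a, Tnfrsf1b, Tnfrsf25 and Tnfrsf9) and the STAT6 site in 3 (Lta, Ltbr and Tnfsf13b). The percentages count entries, whereas these counts are of genes. Of the members with a motif, Fas, Lta, Ltbr, Tnfrsf17, Tnfrsf19 and Tnfrsf1a were not called after αGalCer in wild type fat, and Tnfrsf25 fell. The motifs are matches of letters within these windows and describe no binding.

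The first comparison asked what αGalCer did in wild type fat. The receptors Cd27, Cd40, Tnfrsf9 and Tnfrsf18 and the ligand Tnfsf14 were among the members that rose about 4-fold or more over vehicle. The receptors Tnfrsf1a, Fas and Ltbr and the ligands Cd70, Tnfsf4, Lta and Tnfsf10 were not called, and Tnfrsf25 fell. Of the 39 members 22 (56.4%) were called at an adjusted p under 0.05, against a background of 41.9% of all genes tested. Higher calls numbered 21 (53.8%), against 19.8% of all genes, and 15 of the called members changed by at least 2-fold, as did 2808 of the 18818 genes. The median change was 0.51 over the members and -0.02 over all genes. The 2 groups did not overlap for 22 members, all of them higher after αGalCer, against 46.7% of all genes without overlap in either direction. Of these 22 members 20 were called, as were 7480 of the 8782 genes without overlap. Tnfsf11 and Ngfr were the ones not called. In whole fat, fewer cells of a type and less RNA per cell cannot be told apart.

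**Figure D1:**
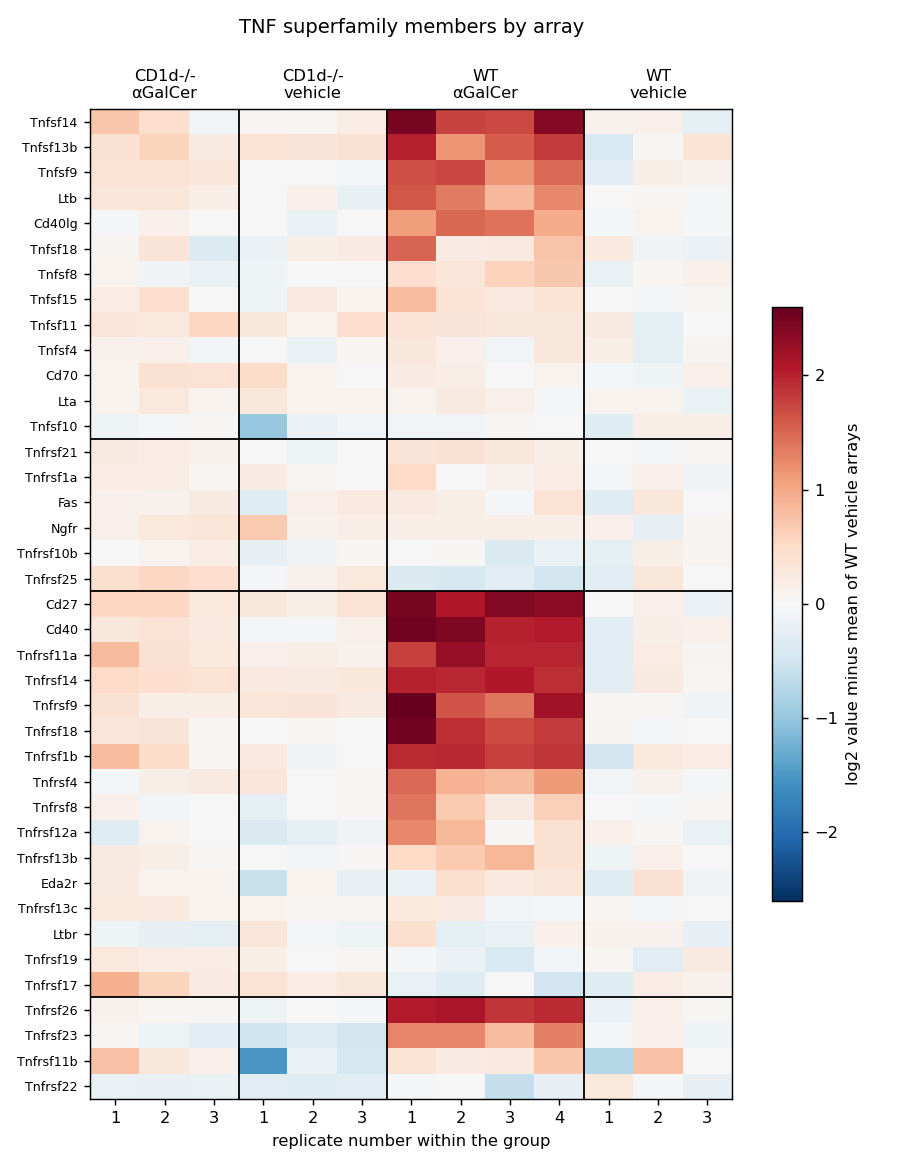
Each row is a member and each column an array, grouped by genotype and injection; colour gives the log2 value minus the mean of the 3 wild type vehicle arrays, and lines separate ligands, death domain receptors, other signalling receptors and decoy or short receptors. The 4 wild type αGalCer arrays form the only block of strong red, and rows such as Lta, Ngfr and Fas stay near 0 in it.

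Among the ligands 7 of 13 rose in wild type fat and none fell, against 19.8% of all genes called higher and 22.0% called lower. Tnfsf14 encodes LIGHT, a ligand made by activated T cells that binds HVEM and the lymphotoxin β receptor. It read 6.72, 6.01, 5.97 and 6.62 on the wild type αGalCer arrays and 4.37, 4.40 and 4.00 on the wild type vehicle arrays. The groups were well apart, with a change of 2.08 ± 0.22 (adjusted p = 5.96e-06), a 4.21-fold rise. Tnfsf13b, which encodes the B cell survival factor BAFF, read 8.27, 7.41, 7.84 and 8.07 after αGalCer against 5.86, 6.30 and 6.62 after vehicle. Its change was 1.64 ± 0.20 (adjusted p = 2.34e-05), and the lowest αGalCer array lay above the highest vehicle array. A second probe set of Tnfsf13b was dim, with group means of 4.55 after αGalCer and 4.35 after vehicle in wild type fat, and was not used for the gene.

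Tnfsf9, the ligand of the T cell receptor CD137, read 6.13, 6.21, 5.61 and 5.94 in wild type αGalCer fat against 4.20, 4.62 and 4.58 in wild type vehicle fat (1.51 ± 0.14, adjusted p = 2.50e-06). Ltb, lymphotoxin β, which forms a membrane heterotrimer with lymphotoxin α, read 6.75, 6.46, 5.97 and 6.37 after αGalCer against 5.10, 5.17 and 5.09 after vehicle (1.27 ± 0.15, adjusted p = 1.72e-05). For Cd40lg, the helper T cell ligand of CD40, the αGalCer arrays read 4.90, 5.30, 5.22 and 4.78 and the vehicle arrays 3.76, 3.90 and 3.78 (1.24 ± 0.12, adjusted p = 3.40e-06). None of these 3 ligands overlapped between the groups. Smaller rises were called for Tnfsf8, the CD30 ligand (0.51 ± 0.11, adjusted p = 0.00169), and for Tnfsf15, which encodes TL1A (0.44 ± 0.14, adjusted p = 0.0255). The Tnfsf15 call was lost without wild type αGalCer replicate 1 or any 1 of the wild type vehicle arrays, with adjusted p of 0.0539 to 0.0658 and changes of 0.32 to 0.46.

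The other 6 ligands were not called. Tnfsf18, the GITR ligand, read 5.18, 3.89, 3.93 and 4.43 on the wild type αGalCer arrays and 3.92, 3.58 and 3.53 on the wild type vehicle arrays (0.68 ± 0.27, adjusted p = 0.0598). One αGalCer array lay far above the rest and another below the highest vehicle array; without wild type αGalCer replicate 2 or 3 the adjusted p was 0.0290 or 0.0329. Tnfsf11, which encodes RANKL, the ligand that drives osteoclast formation, changed by 0.32 ± 0.13 (adjusted p = 0.0581), with 5.48 to 5.53 after αGalCer and 4.93 to 5.42 after vehicle. Without wild type vehicle replicate 1 its adjusted p was 0.0164. Tnfsf4, Cd70, Lta and the apoptosis ligand Tnfsf10 (TRAIL) had changes of -0.03 to 0.16. Lta carried the identical value 3.92 on 5 of the 13 arrays, and Cd70 1 shared value on 3, as 13.4% of all genes did on 3 or more.

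Changes of the death domain receptors ran from -0.39 to 0.29, and 2 of the 6 were called, against 41.9% of all genes. Tnfrsf21 (DR6), a receptor studied in neurons and T helper cells, read 9.83, 9.89, 9.79 and 9.64 after αGalCer against 9.51, 9.44 and 9.54 after vehicle in wild type fat. The groups did not overlap, though the rise of 0.29 ± 0.07 (adjusted p = 0.00532) was only 1.23-fold. Tnfrsf25 (DR3), the receptor of TL1A, was the only member that fell, by 0.39 ± 0.13 on the log2 scale (adjusted p = 0.0284). It read 6.40, 6.36, 6.51 and 6.31 after αGalCer against 6.50, 7.09 and 6.77 after vehicle, so the lowest vehicle array lay within the αGalCer range. The Tnfrsf25 call was lost without wild type αGalCer replicate 2 or 4 or wild type vehicle replicate 2 or 3, with adjusted p of 0.0593 to 0.155 and changes of -0.40 to -0.24.

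The death domain receptor of TNF, Tnfrsf1a, and the death receptor Fas did not pass the test. Tnfrsf1a read 10.78, 10.30, 10.41 and 10.49 in wild type αGalCer fat and 10.23, 10.43 and 10.20 in wild type vehicle fat (0.21 ± 0.11, adjusted p = 0.15). Fas read 8.35, 8.25, 8.04 and 8.47 against 7.79, 8.38 and 8.11 (0.18 ± 0.16, adjusted p = 0.407). Both overlapped between the groups. The TRAIL receptor Tnfrsf10b (-0.13 ± 0.13) and the neurotrophin receptor Ngfr (0.17 ± 0.14) were not called either. Ngfr carried the identical value 5.87 on 5 arrays, among them all 4 wild type αGalCer arrays. Tnf itself, which is outside the member set, changed by 2.78 ± 0.33 in wild type fat (adjusted p = 1.47e-05), and Fasl by 1.44 ± 0.18 (adjusted p = 3.17e-05).

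Of the 16 other signalling receptors 11 rose in wild type fat and none fell, against 19.8% of all genes called higher and 22.0% called lower. Cd27, a costimulatory receptor of T, NK and memory B cells, read 8.15, 7.78, 8.08 and 8.01 on the wild type αGalCer arrays and 5.70, 5.83 and 5.54 on the wild type vehicle arrays. That was the highest rise of any member, 2.32 ± 0.12 or 4.98-fold (adjusted p = 4.66e-08), without overlap. Cd40, through which helper T cells activate B cells, dendritic cells and macrophages, read 8.98, 8.88, 8.45 and 8.52 after αGalCer against 6.17, 6.62 and 6.59 after vehicle. Its rise was 2.25 ± 0.15 (adjusted p = 1.62e-07), again without overlap.

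Tnfrsf9 (CD137), a receptor of activated T cells, read 7.75, 6.61, 6.37 and 7.17 in wild type αGalCer fat against 5.04, 5.01 and 4.89 in wild type vehicle fat (1.99 ± 0.25, adjusted p = 2.47e-05). Tnfrsf18 (GITR), abundant on regulatory and activated T cells, read 8.10, 7.50, 7.28 and 7.41 against 5.65, 5.53 and 5.58 (1.99 ± 0.16, adjusted p = 8.84e-07). Every αGalCer array lay above every vehicle array for both, but Tnfrsf9 had the widest spread of any member within wild type αGalCer fat, 1.39 log2 units. Tnfrsf4 (OX40) read 6.92, 6.34, 6.25 and 6.55 against 5.37, 5.56 and 5.40 (1.07 ± 0.15, adjusted p = 8.37e-05). Tnfrsf8 (CD30) rose by 0.73 ± 0.20 (adjusted p = 0.0113), with 4.95 to 6.13 after αGalCer and 4.67 to 4.79 after vehicle.

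Tnfrsf14 encodes HVEM, the receptor of LIGHT, and read 9.58, 9.53, 9.65 and 9.50 after αGalCer against 7.28, 7.80 and 7.63 after vehicle in wild type fat (1.99 ± 0.11, adjusted p = 5.38e-08). Tnfrsf11a encodes RANK, the receptor of RANKL on osteoclast precursors and dendritic cells, and read 8.54, 9.03, 8.75 and 8.74 against 6.50, 6.96 and 6.85 (1.99 ± 0.15, adjusted p = 4.60e-07). Tnfrsf1b, the second TNF receptor, which has no death domain and is strong on immune cells, read 9.91, 9.93, 9.75 and 9.84 against 7.50, 8.25 and 8.18 (1.89 ± 0.19, adjusted p = 4.74e-06). The αGalCer arrays of Tnfrsf14 and Tnfrsf1b lay within 0.15 and 0.18 log2 units of each other, closer than their vehicle arrays. Tnfrsf13b (TACI), a receptor of BAFF, rose by 0.62 ± 0.12 (adjusted p = 0.000825), with no overlap.

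Tnfrsf12a encodes Fn14, the receptor of TWEAK on stromal and injured tissue. It read 8.05, 7.66, 6.84 and 7.20 in wild type αGalCer fat against 6.94, 6.83 and 6.64 in wild type vehicle fat, so the groups overlapped. Its rise of 0.63 ± 0.23 was called (adjusted p = 0.0406) but lost on leaving out any 1 of 8 arrays: wild type αGalCer replicate 1 or 2, any wild type vehicle array, CD1d-/- αGalCer replicate 2 or 3, or CD1d-/- vehicle replicate 2. The adjusted p was then 0.0513 to 0.134 and the change 0.43 to 0.70. The other 5 signalling receptors were not called: the lymphotoxin β receptor Ltbr (0.04 ± 0.16), the BAFF receptor Tnfrsf13c (0.10 ± 0.10), the ectodysplasin receptor Eda2r (0.21 ± 0.20), Tnfrsf19 (-0.17 ± 0.12) and the plasma cell receptor BCMA, Tnfrsf17 (-0.25 ± 0.18).

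The decoy or short receptors were split. Tnfrsf26, a mouse receptor without a death domain, read 6.84, 6.90, 6.64 and 6.70 in wild type αGalCer fat against 4.61, 4.91 and 4.80 in wild type vehicle fat (2.00 ± 0.10, adjusted p = 4.26e-08). Tnfrsf23, a mouse decoy receptor of TRAIL, read 8.31, 8.32, 7.83 and 8.36 against 7.01, 7.18 and 6.93 (1.17 ± 0.13, adjusted p = 1.32e-05). Neither overlapped between the groups. The other mouse TRAIL decoy, Tnfrsf22 (-0.22 ± 0.15), and osteoprotegerin, the soluble decoy of RANKL encoded by Tnfrsf11b (0.38 ± 0.35), were not called. Tnfrsf22, Tnfrsf23 and Tnfrsf26 are similar neighbouring copies, so the split between their probe sets is uncertain.

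**Figure D2:**
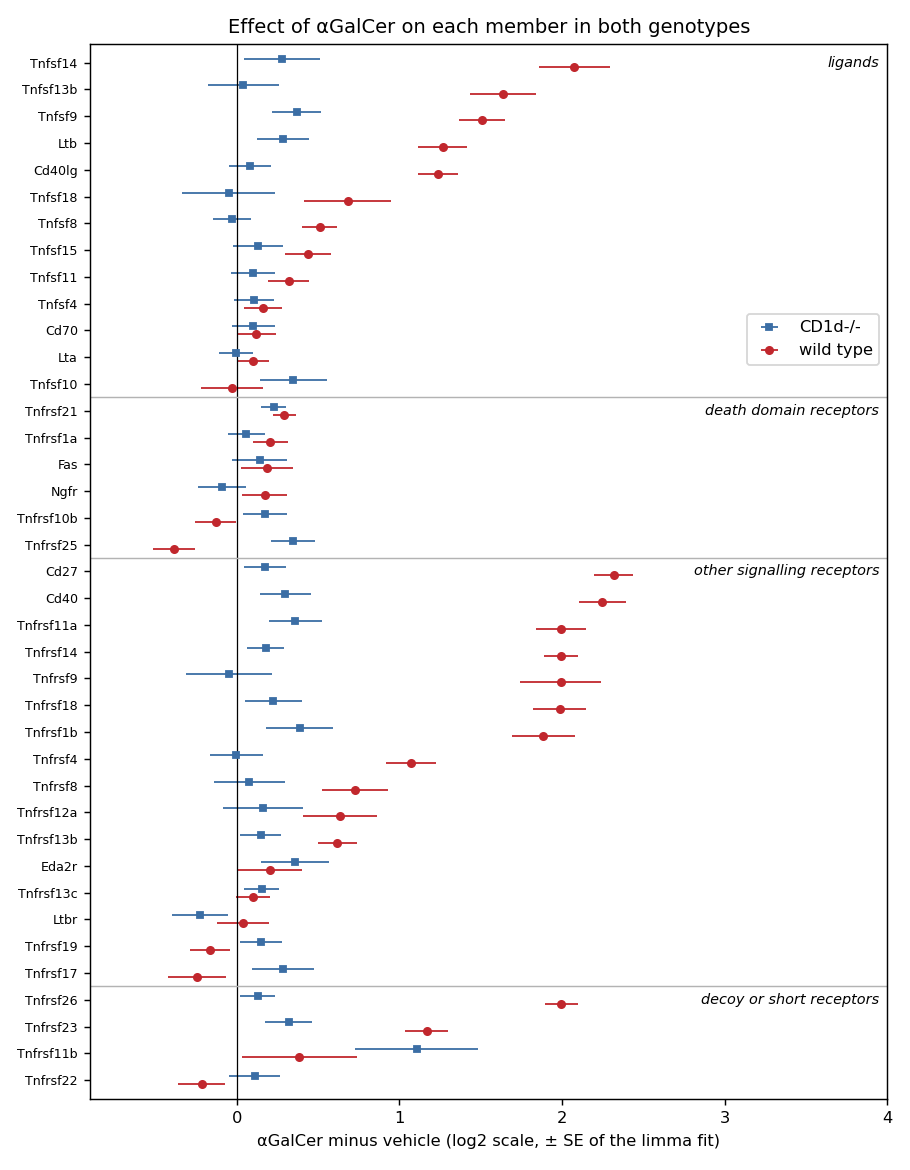
For each member the horizontal axis gives αGalCer minus vehicle on the log2 scale with the SE of the limma model, CD1d-/- fat as blue squares and wild type fat as red circles, ordered by the wild type change within each role. Wild type changes reach 2.32 (Cd27) while the CD1d-/- points lie between -0.23 (Ltbr) and 1.11 (Tnfrsf11b).

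In wild type fat 7 of 13 ligands and 14 of 26 receptors rose, against 19.8% of all genes. Set against a chosen list of known ligand and receptor pairs, both partners rose in 5 of 16 pairs. Some members, such as Tnfsf13b, enter several pairs, and whether joint rises were more frequent than chance was not tested. These were Cd40lg with Cd40, Tnfsf9 with Tnfrsf9, Tnfsf8 with Tnfrsf8, Tnfsf14 with Tnfrsf14, and Tnfsf13b with Tnfrsf13b. In 4 pairs the receptor alone rose: Cd27 without Cd70, Tnfrsf4 without Tnfsf4, Tnfrsf18 without Tnfsf18, and Tnfrsf11a without Tnfsf11. In 5 pairs the ligand alone rose: Tnfsf14 and Ltb without Ltbr, Tnfsf13b without Tnfrsf13c and without Tnfrsf17, and Tnfsf15 without Tnfrsf25. Neither partner rose for Tnfsf11 with Tnfrsf11b or for Tnfsf10 with Tnfrsf10b. The list of pairs is not complete. The ligand Lta and the receptors Tnfrsf1a and Tnfrsf1b were not in it, and of these Tnfrsf1b rose. The TRAIL decoys Tnfrsf22 and Tnfrsf23 were not among the pairs either, and Tnfrsf23 rose. A partner that was not called is not thereby shown to be unchanged.

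Several members are neighbours in the RefSeq gene order, and some differed from their neighbours, though differences between genes were not tested. On chromosome 17 Ltb changed by 1.27, Tnf by 2.78 and Lta by 0.10 in wild type fat, and, elsewhere on it, Tnfsf9 by 1.51, Cd70 by 0.12 and Tnfsf14 by 2.08. On chromosome 7 Tnfrsf26, Tnfrsf22 and Tnfrsf23 changed by 2.00, -0.22 and 1.17. On chromosome 6 Cd27 changed by 2.32 while Ltbr and Tnfrsf1a, the next members along it, changed by 0.04 and 0.21. On chromosome 4, which holds 9 members, Tnfrsf4 and Tnfrsf18 changed by 1.07 and 1.99, Tnfrsf1b and Tnfrsf8 by 1.89 and 0.73, and Tnfsf15 and Tnfsf8 by 0.44 and 0.51. Levels of different genes were not compared.

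**Figure D3:**
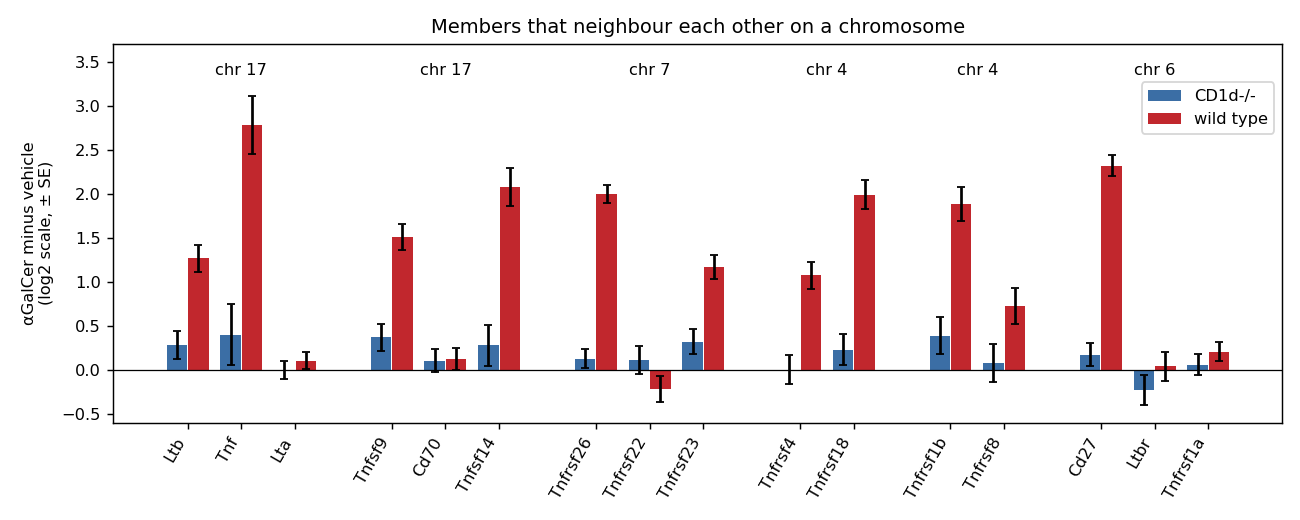
Bars show αGalCer minus vehicle (log2 scale, ± SE of the limma model) for neighbouring members and Tnf, in gene order within each group, CD1d-/- in blue and wild type in red. Lta, Cd70, Tnfrsf22, Ltbr and Tnfrsf1a stay near 0 in wild type fat while Ltb, Tnf, Tnfsf9, Tnfsf14, Tnfrsf26, Tnfrsf23 and Cd27 in the same groups changed by 1.17 to 2.78.

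The wild type αGalCer arrays differed among themselves. Replicate 1 was the highest of the 4 for 11 of the 21 raised members, and replicate 3 the lowest for 13 of the 21. Over all genes replicate 1 was the highest for 34.9% and replicate 3 the lowest for 28.4%. After Tnfrsf9, the widest ranges among these 4 arrays were 1.29 for Tnfsf18, 1.21 for Tnfrsf12a and 1.17 for Tnfrsf8, and in each of these 4 members replicate 1 was the highest.

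Signalling genes downstream of the receptors, taken from a separate list, moved in the same contrast. Of the 40 listed, 35 were measured. In wild type fat 22 of these rose and 2 fell, against 19.8% of all genes called higher and 22.0% called lower. The median change was 0.52, against -0.02 over all genes. The necroptosis kinase Ripk3 rose by 2.87 ± 0.16 (adjusted p = 6.56e-08) and its substrate Mlkl by 1.67 ± 0.09 (adjusted p = 6.38e-08). The NF-κB inhibitor Nfkbie rose by 1.96 ± 0.18 and the adaptor Traf1 by 1.57 ± 0.23. Map3k5, a stress kinase, fell by 0.77 ± 0.07 on the log2 scale, and Traf4 fell by 0.43 ± 0.16, close to the threshold (adjusted p = 0.0481). In CD1d-/- fat none of the 35 was called, against 0.0% of all genes, and the median change of the 35 was 0.01.

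Cell type markers moved in the same contrast as the members. Over all genes 19.8% were called higher and 22.0% lower in it, the background for the counts below. The T cell list averaged 7.11 to 7.44 on the wild type αGalCer arrays and 5.13 to 5.24 on the wild type vehicle arrays, and all 11 measured markers rose. The NK and cytotoxic cell list averaged 8.12 to 9.11 against 4.95 to 5.44, with 9 of 9 higher, and the macrophage and monocyte list 10.53 to 10.83 against 8.66 to 9.41, with 9 of 10 higher. Among dendritic cell markers 6 of 8 rose and 1 fell, and among neutrophil markers 5 of 6 rose. The B and plasma cell list averaged 4.77 to 4.89 against 4.79 to 4.96, with 1 of 8 higher. Adipocyte markers fell, 9 of 9, as did 8 of 9 endothelial markers, while the ninth rose, and 6 of 8 fibroblast and preadipocyte markers. Of the epididymis and ductal epithelium markers 5 of 9 fell, and every wild type vehicle array lay above every wild type αGalCer array in this list's average. Of the mesothelium markers 2 of 7 fell, as did 1 of 8 skeletal muscle markers, and none of the 6 measured lymph node markers was called. The part of these cell types and tissues in the changes of the members was not tested.

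The second comparison asked whether αGalCer acted without CD1d. No member was called in CD1d-/- fat, against a background of 0.0% of all genes, and the lowest adjusted p was 0.72 by limma. At an unadjusted p under 0.05 there were 6 members (15.4%), against 1281 genes (6.81%). Small positive differences were common: 32 of the 39 members (82.1%) were above 0, against 54.1% of all genes, with a median of 0.15 against 0.01. Macrophage and monocyte markers were all 10 above 0 in the same contrast (median 0.36), and their list averaged 9.30 to 9.74 in CD1d-/- αGalCer fat against 9.01 to 9.23 in CD1d-/- vehicle fat, without overlap. The 9 NK and cytotoxic cell markers were also above 0 (median 0.32), with overlapping list averages of 5.20 to 5.93 against 5.06 to 5.27, and no marker of either list was called. Other lists leaned the same way, with 8 of 9 endothelial, 7 of 8 fibroblast and preadipocyte, 7 of 8 dendritic cell, 9 of 11 T cell and 5 of 6 neutrophil markers above 0. Fewer were above 0 for B and plasma cells (2 of 8), skeletal muscle (2 of 8) and epididymis and ductal epithelium (2 of 9). The part of these cells and tissues in the members' differences was not tested. The groups did not overlap for 14 members (35.9%), all higher after αGalCer, against 13.8% of all genes in either direction. Tnfrsf11b aside, the 95% interval of the change ended below 1 for all members, at 0.84 or less. Tnfrsf1b, for example, read 8.77, 8.46 and 8.00 in CD1d-/- αGalCer fat and 8.22, 7.88 and 7.96 in CD1d-/- vehicle fat, a difference of 0.39 ± 0.21 with overlapping groups.

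The 6 members with an interval above 0 were Tnfsf9, Tnfrsf11a, Tnfrsf11b, Tnfrsf21, Tnfrsf23 and Tnfrsf25. Tnfsf9 read 4.83, 4.83 and 4.78 after αGalCer against 4.46, 4.46 and 4.42 after vehicle (0.37 ± 0.15), and Tnfrsf21 read 9.72, 9.70 and 9.60 against 9.48, 9.37 and 9.48 (0.23 ± 0.08). These groups were narrow and did not overlap, yet both adjusted p were 0.72. Tnfrsf11b read 7.28, 6.80 and 6.64 against 4.99, 6.36 and 6.05, a difference of 1.11 with a 95% interval of 0.29 to 1.92. Its lowest array was CD1d-/- vehicle replicate 1, which was also the lowest array for Tnfsf10 (7.09) and Eda2r (4.83) and the highest for Ngfr (6.38). Without CD1d-/- vehicle replicate 1, 1 member and 639 of all genes had an unadjusted p under 0.05. It was 2 members without CD1d-/- αGalCer replicate 1 (882 genes) or 2 (749 genes) and 7 without replicate 3 (1132 genes). Without CD1d-/- vehicle replicate 2 or 3 it was 3 members (1522 genes) or 4 (2201 genes). CD1d-/- vehicle replicate 1 and 2 others of these 6 arrays carried the skeletal muscle transcripts given above, whose part in these differences was not tested.

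**Figure D4:**
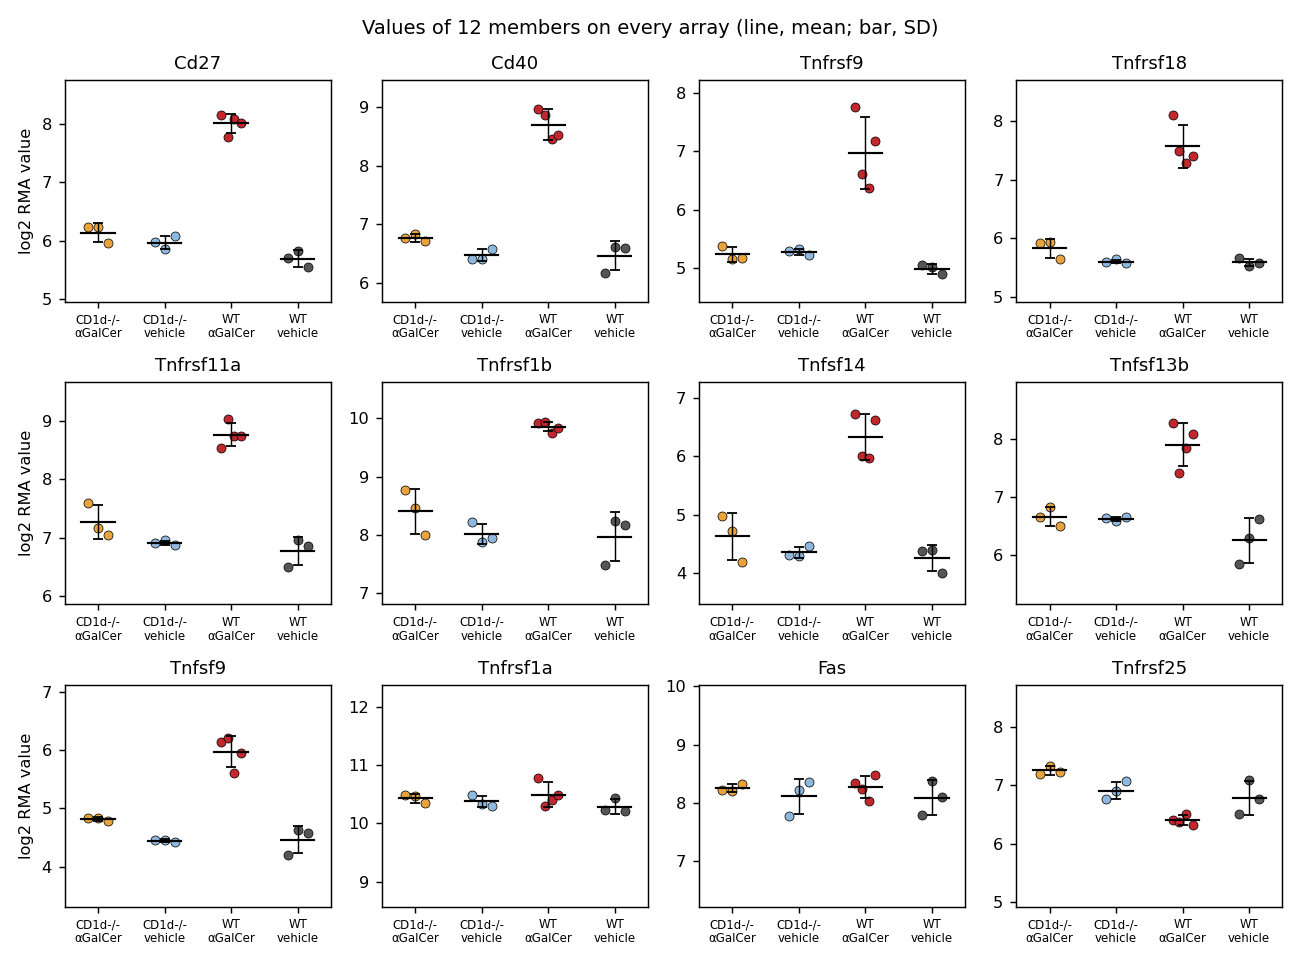
Points are single arrays on the log2 RMA scale for 12 members, with a line at the group mean and a bar for the SD (3 arrays per group, 4 for wild type αGalCer); each panel has its own axis. In Cd27, Cd40, Tnfrsf9, Tnfrsf18, Tnfrsf11a, Tnfrsf1b, Tnfsf14, Tnfsf13b and Tnfsf9 the wild type αGalCer arrays lie above all others, whereas Tnfrsf1a and Fas overlap and Tnfrsf25 is lowest there.

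The third comparison tested whether the effect of αGalCer differed between the genotypes, as the effect in CD1d-/- fat minus that in wild type fat. It was called for 17 members (43.6%), against 28.2% of all genes. For 16 of them (41.0%) the difference was negative, against 13.9% of all genes, and for Tnfrsf25 it was positive. Cd27 changed by 0.17 ± 0.13 in CD1d-/- fat and 2.32 ± 0.12 in wild type fat, a difference of -2.15 ± 0.18 (adjusted p = 6.94e-06). Tnfrsf9 changed by -0.05 ± 0.26 in CD1d-/- fat and 1.99 ± 0.25 in wild type fat, a difference of -2.04 ± 0.36 (adjusted p = 0.000939). Cd40 (-1.95 ± 0.21), Tnfrsf26 (-1.87 ± 0.15), Tnfsf14 (-1.80 ± 0.32) and Tnfrsf18 (-1.76 ± 0.24) were also called. Tnfrsf25 changed by 0.35 ± 0.14 in CD1d-/- fat and -0.39 ± 0.13 in wild type fat, a difference of 0.73 ± 0.19 (adjusted p = 0.0105).

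Cd27 read 6.23, 6.23 and 5.96 in CD1d-/- αGalCer fat and 5.98, 5.85 and 6.07 in CD1d-/- vehicle fat. Tnfrsf9 read 5.38, 5.15 and 5.17 against 5.29, 5.32 and 5.22, and Tnfsf14 read 4.98, 4.72 and 4.19 against 4.31, 4.29 and 4.46. In all 3 the CD1d-/- groups overlapped, and among them Tnfsf14 varied most within CD1d-/- αGalCer fat. For Tnfsf13b the CD1d-/- arrays read 6.66, 6.83 and 6.50 after αGalCer and 6.63, 6.59 and 6.65 after vehicle, and the effect differed between the genotypes by -1.59 ± 0.30 (adjusted p = 0.00126). Tnfrsf14 read 8.07, 8.00 and 7.95 against 7.82, 7.80 and 7.88 in CD1d-/- fat, without overlap, and its difference of effects was -1.81 ± 0.15 (adjusted p = 9.49e-06). Tnfrsf11a (-1.64 ± 0.22), Tnfrsf1b (-1.50 ± 0.28), Cd40lg (-1.16 ± 0.18), Tnfsf9 (-1.14 ± 0.21), Tnfrsf4 (-1.07 ± 0.22), Ltb (-0.98 ± 0.22) and Tnfrsf23 (-0.85 ± 0.20) completed the called members with a negative difference, together with Tnfsf8.

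Of the 21 members that rose in wild type fat, 5 had no called difference between the genotypes: Tnfsf15, Tnfrsf21, Tnfrsf8, Tnfrsf12a and Tnfrsf13b. Tnfrsf21 changed by 0.23 ± 0.08 in CD1d-/- fat and 0.29 ± 0.07 in wild type fat (difference -0.07 ± 0.11, adjusted p = 0.732). The Tnfrsf13b difference of -0.47 ± 0.17 lay near the threshold (adjusted p = 0.0602), and its adjusted p was 0.0303 without wild type αGalCer replicate 4. For Tnfrsf8 the difference was -0.65 ± 0.30 (adjusted p = 0.135), or 0.0307 for its adjusted p without wild type αGalCer replicate 3. Tnfsf8 was called at -0.54 ± 0.16 (adjusted p = 0.0201) and lost without CD1d-/- αGalCer replicate 3 or wild type vehicle replicate 1 (adjusted p 0.0556 or 0.0502). Without the 4 arrays that carried muscle or epididymis transcripts, which leaves CD1d-/- vehicle fat with 1 array, 11 members were called.

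CD1d-/- and wild type fat were then compared after each injection. After vehicle no member was called, against 0.112% of all genes (21 genes). The lowest adjusted p was 0.523, for Tnfrsf23, which read 6.53, 6.72 and 6.56 in CD1d-/- vehicle fat and 7.01, 7.18 and 6.93 in wild type vehicle fat (-0.44 ± 0.14). These groups did not overlap. At an unadjusted p under 0.05 there were 4 members (10.3%), against 1258 genes (6.69%).

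After αGalCer 22 members (56.4%) were called between the genotypes, against 41.1% of all genes. Of these 19 (48.7%) were lower in CD1d-/- fat, against 19.2% of all genes, and 3 (7.69%) were higher, against 21.9% of all genes. This contrast shares its wild type αGalCer arrays with the first comparison. Cd40 averaged 3.84-fold lower in CD1d-/- fat, at 6.77, 6.83 and 6.71 against 8.98, 8.88, 8.45 and 8.52 in wild type fat (-1.94 ± 0.15, adjusted p = 4.08e-07). The difference was -1.92 ± 0.10 for Tnfrsf26 and -1.87 ± 0.12 for Cd27. The 3 higher members were Tnfrsf25, Tnfrsf17 and Tnfrsf19. In this contrast 11 of 11 T cell markers, 9 of 9 NK and cytotoxic cell markers and 7 of 10 macrophage and monocyte markers were lower in CD1d-/- fat. Higher there were 9 of 9 adipocyte, 8 of 8 fibroblast and preadipocyte, 8 of 9 endothelial and 6 of 7 mesothelium markers. The part of these cell types was not tested.

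Tnfrsf25 read 7.20, 7.33 and 7.23 in CD1d-/- αGalCer fat and 6.40, 6.36, 6.51 and 6.31 in wild type αGalCer fat (0.86 ± 0.13, adjusted p = 0.000128). Tnfrsf17 read 6.09, 5.75 and 5.38 against 4.98, 4.85, 5.18 and 4.66 (0.82 ± 0.18, adjusted p = 0.00215). Both were without overlap. The B and plasma cell list averaged 5.00 to 5.04 in CD1d-/- αGalCer fat against 4.77 to 4.89 in wild type αGalCer fat. Of its markers 2 of 8 were called higher, against 21.9% of all genes. After vehicle Tnfrsf17 was also higher in CD1d-/- fat (0.29 ± 0.19), without overlap, though not called (adjusted p = 0.836 by limma). The list then averaged 5.09 to 5.29 in CD1d-/- fat against 4.79 to 4.96 in wild type fat, also without overlap. Of its 8 markers 7 averaged higher in CD1d-/- vehicle fat, and none was called. Tnfrsf19, a receptor also called TROY, was higher by 0.39 ± 0.12 (adjusted p = 0.0201) and lost its call without CD1d-/- αGalCer replicate 1 or wild type αGalCer replicate 3 (adjusted p 0.0664 or 0.0588). Tnfrsf12a was lower in CD1d-/- fat (-0.71 ± 0.23, adjusted p = 0.0245), with overlapping groups, and was not called without CD1d-/- αGalCer replicate 1 or wild type αGalCer replicate 1 or 2 (adjusted p 0.0538 to 0.104). Tnfsf18, not called at -0.66 ± 0.27 (adjusted p = 0.0687), had an adjusted p of 0.0322 or 0.0371 without wild type αGalCer replicate 2 or 3.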

How the data were processed

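RNA of 13 epididymal fat samples was measured on 1 Affymetrix array each. The authors deposited log2 values per probe set, made with RMA per the submitters' processing notes. RMA's version and the build behind the probe sets were not given in the sources used here. Values ran from 1.53 to 13.84 and array medians from 5.68 to 5.83. Without scan dates no batch could be formed. Precision is limited by how many arrays each group has.

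Of 35556 probe sets, 21218 with 1 symbol in the platform annotation were used, updated through the RefSeq table of GRCm38.p6 (21185 by Entrez identifier and 3 by accession, while 30 kept their symbol). The highest-mean probe set stood for each of the 1388 genes with several, leaving 18818 genes and no filter on dim ones. For the members, 38 genes had 1 probe set and Tnfsf13b had 2.

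All arrays entered 1 limma fit (version 3.58.1, R 4.3.3) with group means, 9 residual degrees of freedom and eBayes with an intensity trend. The 5 contrasts were tested two-sided, with Benjamini-Hochberg adjustment over all genes, and called at an adjusted p under 0.05. The fit was also run on simulated data with independent arrays and few changed genes. Such data differ from these arrays, so that run cannot show how the fit performs on them. Correlations of the deviations of same-numbered arrays ran from -0.203 to 0.484, and 5 of 18 pairs were over 0.1. The highest, 0.481 and 0.484, were for wild type vehicle with CD1d-/- vehicle replicates 1 and 2. Replicate numbers are not stated to pair samples, so arrays were not paired in the main fit. This check cannot show that same-numbered arrays are unrelated.

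The members, their roles, the signalling and cell type lists, the motifs and the tests were chosen with earlier results of these data known. All members could be named. From the signalling list up to 4 called genes with the largest rises and up to 4 with the largest falls in wild type fat were named. The 5 promoters were chosen after their motifs were seen. Alternatives covered the variance model, array weights, normalization, dim genes, probe sets, a fold threshold, the replicate block and left-out arrays.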

Additional observations from a re-analysis of the deposited data

Results flagged for a closer look

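Among the 4 wild type αGalCer arrays, 1 array stood apart from the other 3 for 2 members by Dixon's test. Tnfrsf23 read 7.83 on replicate 3 and 8.31 to 8.36 on the others. Tnfsf15 read 5.19 on replicate 1 and 4.64 to 4.74 on the others. The test was made for 39 members in this group, and chance alone gives about 1 such array in 20 groups.

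The effect of αGalCer differed between the genotypes for 17 members, as CD1d-/- minus wild type on the log2 scale. For the ligands the difference was -1.80 for Tnfsf14, -1.59 for Tnfsf13b, -1.16 for Cd40lg, -1.14 for Tnfsf9, -0.98 for Ltb and -0.54 for Tnfsf8. For the signalling receptors it was -2.15 for Cd27, -2.04 for Tnfrsf9, -1.95 for Cd40, -1.81 for Tnfrsf14, -1.76 for Tnfrsf18, -1.64 for Tnfrsf11a, -1.50 for Tnfrsf1b and -1.07 for Tnfrsf4. Tnfrsf26 gave -1.87 and Tnfrsf23 -0.85. Tnfrsf25, at 0.73, was the 1 member whose difference was positive.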

How the results depend on the processing

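Results were recomputed under up to 24 alternatives, of which 13 left out 1 array each; the difference between the genotypes needs all 4 groups and had 23, and dim members were not tested under the filter on dim genes. In those run, no direction of a called member turned. In wild type fat 18 (a fold of at least 1.5, or without the 4 arrays with muscle or epididymis transcripts) to 24 (array weights) members were called, and 19 to 23 with 1 array left out. In CD1d-/- fat array weights called 1 member (Tnfrsf21) and 322 genes, while the other alternatives called no member and at most 2 genes. The difference between the genotypes was called for 11 members, and 3164 in place of 5309 genes, without the 4 arrays; these differences then lost their call: Ltb (-0.76), Tnfrsf4 (-1.03), Tnfrsf9 (-1.91), Tnfrsf23 (-0.68), Tnfrsf25 (0.60) and Tnfsf8 (-0.59), with adjusted p of 0.0555 to 0.2. Fewer samples entered that fit. The other alternatives gave 16 to 20, and 16 to 18 with 1 array left out. No member was called between the genotypes after vehicle in any of them, while the genes called there numbered 3 without the 4 arrays, 4 with those 2 groups alone and 169 with array weights, in place of 21, and 11 to 35 with 1 array left out. After αGalCer 19 to 23 members were called, and 20 to 22 with 1 array left out. A fold of at least 1.5 lowered the genes called from 7881 to 5019 in wild type fat and from 7739 to 4888 between the genotypes after αGalCer. The main fit did not pair the arrays by replicate number. With the replicate block 22, 0, 17, 0 and 22 members were called in the order of the comparisons above. Wild type αGalCer replicate 4 was the only array of its number, so the block gave the same changes as leaving that array out. In CD1d-/- fat 30 members were above 0 without the 4 arrays, and 31 to 35 with 1 array left out, in place of 32. The calls of Tnfrsf12a, Tnfrsf25 and Tnfsf15 in wild type fat were lost in 11, 7 and 6 of the alternatives.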
